A study of Homo sapiens with 10 samples.

Results

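The replication-dependent histone genes are the genes of the human histone clusters formerly named HIST1H, HIST2H, HIST3H and HIST4H, which now carry H1-, H2AC, H2BC, H3C and H4C names. They were chosen by symbol alone, with pseudogenes left out. This gave 70 genes of the 20046 named on the array, all that the rule finds in RefSeq, with 80 of its 47323 probes. By family these were 6 probes for H1, the linker histone, and 19 for H2A, 23 for H2B, 17 for H3 and 15 for H4, the core histones around which DNA is wound. Of the 70 genes, 55 lie on chromosome 6, 14 on chromosome 1 and 1 on chromosome 12. One probe is annotated to both H3C11 and H3C6, and family members are near-identical in coding sequence, so the assignment of a probe to a single gene is uncertain.

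Replication-dependent histone genes are transcribed in S phase, when new DNA has to be packaged. Their mRNAs typically end in a stem-loop bound by SLBP instead of a poly(A) tail, and SLBP takes part in their processing, translation and decay. Some members, among them H1-2, H2AC6, H2BC4, H2BC5, H2BC12 and H2BC21, are also known to give polyadenylated transcripts. The cRNA that was hybridised came from a commercial amplification kit, and how completely it copied stem-loop mRNAs cannot be read from these values.

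All arrays carried RNA of Meg01, an established human megakaryoblastic leukaemia line, grown in RPMI with 10% fetal calf serum, given lentivirus at an infection multiplicity of 10 and sorted for GFP 48 hours later. The virus delivered a control hairpin (shc002) or the hairpin sh95 against ATXN2, whose product binds RNA and associates with the poly(A)-binding protein. RNA of sucrose gradient fractions 1 to 8 (subpolysomal, with few or no ribosomes) and 9 to 17 (polysomal) was pooled separately in 3 independent experiments. Each hairpin had 2 subpolysomal arrays, P1 and P3 in the labels, and 3 polysomal arrays, P2, P4 and P5. The design has 1 hairpin per arm and 1 line. No P number occurs in both pools, and the sources used here do not tie the numbers to the 3 experiments. Within a group the labels separate the arrays by P number only, and p-values measure the spread between these samples. The main model took all arrays as separate. Arrays sharing a P number varied together, with an estimated correlation within pairs of 0.55. SEs of the pool difference averaged over hairpins are therefore likely too small. SEs of knockdown against control, and of its change between pools, hold the spread between P numbers and are likely too large for many probes.

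ATXN2 read lower on each of the 5 knockdown arrays than on the control array with the same P number, with control arrays between log2 9.18 and 10.77 and knockdown arrays between 8.64 and 8.99. Of 12 megakaryocyte markers 10 had a probe and 5 read above background on all 10 arrays, among them ITGA2B, GATA1 and FLI1, while PF4 and VWF were among those with no measured probe. Per array, 18456 to 20205 probes of the table were above background. Arrays of the same pool with different P numbers differed for many probes, 5595 of 26394 kept probes by the F test described below. In the subpolysomal pool, which holds P1 and P3 alone, neither can be called the one that stands apart. The control polysomal P2 array stood apart for ACTB, the cytoplasmic actin gene, whose probe 1 read 8.84 there and between 12.49 and 13.90 on the other 9 arrays.

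Stretches of 4 promoters are shown because the values of these genes are described in full further on. The sequences come from RefSeq on GRCh38.p14, which held a promoter window for 65 of the 70 genes, running from 250 bases before to 50 bases after the gene start. Each window was searched on both strands for the octamer ATTTGCAT, for CCAAT and for TATAAA, and the capitals mark the octamer, on either strand, or the TATAAA match nearest to the gene start. H2AC20 (window chr1:149886668-149886967, plus strand) and H2BC21 (chr1:149886633-149886932, minus strand) are neighbours that point away from each other, and their windows share 265 bases. The octamer stretch of both is the same site, chr1:149886710-149886739, read on opposite strands, and the octamer in it ends 189 bases before the start of H2AC20 and 38 bases before that of H2BC21. The TATAAA stretch lies at chr1:149886877-149886906 for H2AC20 and chr1:149886695-149886724 for H2BC21. That of H2AC18 lies at chr1:149842764-149842793, minus strand. For H2BC12, on the minus strand of chromosome 6, the octamer stretch is chr6:27146886-27146915 and the TATAAA stretch chr6:27146868-27146897.
H2AC20 octamer: ataaccaccttATGCAAATtagggctccga
H2BC21 octamer: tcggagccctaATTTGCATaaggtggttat
H2BC12 octamer: ctcttcaccttATTTGCATgagaggtccta
H2AC20 TATAAA: cctaggaaagctTATAAAggctttcctctt
H2BC21 TATAAA: gcataaggtggtTATAAAagaatcaggccc
H2AC18 TATAAA: cgccgttctgtcTATAAAaaggtgaagcag
H2BC12 TATAAA: tgagaggtcctaTATAAAaacgactcctgg

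The TATAAA matches shown end between 21 and 25 bases before the gene start. The H2AC20 and H2BC21 windows each held 1 octamer, 3 CCAAT and 2 TATAAA matches, and the H2BC12 window 1, 6 and 3, of which 1 pair overlapped on opposite strands. The H2AC18 window held 2 CCAAT matches, 1 TATAAA match and no exact octamer. It shares a run of 299 bases with the window of H2AC19, its near copy, and signals of these 2 genes cannot be told apart with confidence.

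The motifs differed by family. The octamer was in 11 of 16 H2A promoters (68.8%) and 14 of 18 H2B promoters (77.8%), in 1 of 12 for H3, and in 0 of 6 for H1 and 0 of 13 for H4. It was in 1.80% of the 27305 promoters in the table. CCAAT was in every promoter of H1, H2A, H2B and H3 (6, 16, 18 and 12) and in 3 of 13 for H4, against 35.7% of all promoters. TATAAA was in 43 of the 65 histone promoters (66.2%) and in 3264 of all. These are matches of letters and describe the windows only.

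Most histone probes lay near the floor of the arrays. A probe counted as above background on an array where its intensity passed the upper 0.05 tail of that array's background, which fell between 197 and 200 intensity units, and it was kept for testing where it did so on at least 2 arrays. By this criterion 48 of the 80 histone probes (60%) were kept, for 43 genes, against 55.8% of all probes. On all 10 arrays 12 histone probes (15%) were above background, against 24.1% of all probes. Another 26 histone probes were above background on no array and 6 on 1 array. The 32 probes not kept read between log2 7.41 and 7.84 and none ranged over more than 0.34 across arrays, so no level can be given for them.

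The families differed in how many probes were measured. Of the H1 probes 2 of 6 were kept, of H2A 12 of 19, of H2B 15 of 23, of H3 11 of 17 and of H4 8 of 15. The probes above background on all 10 arrays were 1 for H1 (H1-2), 3 for H2A (H2AC18 probe 1, H2AC20, H2AC25), 5 for H2B (H2BC4, H2BC5 probe 1, H2BC12 probe 1, H2BC15, H2BC21), 2 for H3 (H3C4, H3C7) and 1 for H4 (H4C3). H2BC4, H2BC5, H2BC12, H2BC21 and H1-2 are among the members known to give polyadenylated transcripts. The sixth of those, H2AC6, was above background on 7 arrays.

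The count also differed between arrays. On the P1 arrays 22 (control) and 28 (knockdown) histone probes were above background, and on the P3 arrays of the same pool 42 and 44. In polysomal RNA the P2 arrays had 29 and 19, the P4 arrays 31 and 31 and the P5 arrays 38 and 33. The 2 P3 arrays thus stood above all others, and the knockdown P2 array was lowest. Over the whole table the P3 arrays also had the most probes above background, 19634 (control) and 20205 (knockdown), against 18456 to 19395 on the others. The knockdown P2 array had 18908, which was not the lowest. The cause was not tested. In bulk RNA, fewer cells in S phase, less histone mRNA per cell and technical differences between the RNA samples or arrays cannot be told apart.

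**Figure D1:**
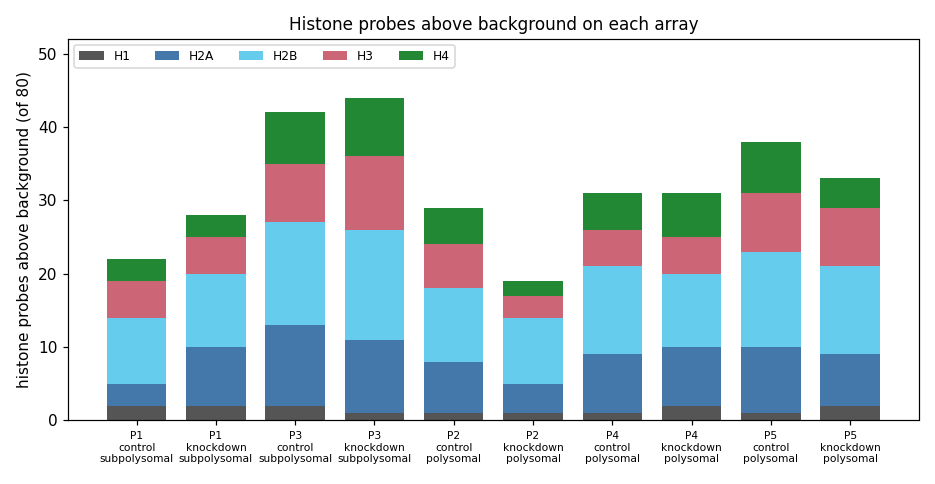
Number of histone probes above background on each of the 10 arrays (vertical axis, of 80), stacked by family, with the arrays ordered by P number and hairpin. The P3 arrays hold 42 and 44 probes and the knockdown polysomal P2 array 19.

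The brightest members varied mainly between P numbers. H4C3, a gene of core histone H4, read log2 8.62 (P1) and 13.32 (P3) on the control subpolysomal arrays and 8.91 and 13.16 on the knockdown ones. On the control polysomal arrays it read 9.61 (P2), 13.91 (P4) and 14.13 (P5), and on the knockdown ones 9.22, 14.01 and 11.74. The P1 and P2 arrays were low and all others high, in both pools and with both hairpins, so the groups overlapped fully. The range over arrays, 5.51 on the log2 scale, was the widest of all kept histone probes.

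H2AC20, an H2A gene, read 7.81 (P1) and 10.21 (P3) in control subpolysomal RNA and 7.93 and 10.37 in knockdown. In polysomal RNA it read 8.41 (P2), 9.29 (P4) and 9.03 (P5) in control and 7.66, 8.82 and 8.46 in knockdown. The P3 arrays were the highest, the P1 arrays and the knockdown polysomal P2 array were the lowest, and the other polysomal arrays lay between them. H2AC18 probe 1 had the same arrays at the top and the bottom, with 7.93, 10.11, 8.01 and 10.23 in subpolysomal RNA (control P1, control P3, knockdown P1, knockdown P3). Its polysomal arrays read 8.82, 9.32 and 9.07 in control (P2, P4, P5) and 7.80, 8.88 and 8.62 in knockdown. H2AC18 probe 2 and the H2AC19 probe, which may detect the same transcripts, ranged over 2.74 and 2.95 across arrays and were likewise highest on the P3 arrays.

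H2BC12, an H2B gene, went the other way. Its probe 1 read 13.14 (P1) and 11.87 (P3) in control subpolysomal RNA and 13.11 and 11.83 in knockdown. In polysomal RNA it read 13.86 (P2), 12.58 (P4) and 13.79 (P5) in control and 12.70, 12.56 and 14.17 in knockdown. Here the P1 arrays lay above the P3 arrays. H1-2, a linker histone gene, read 9.80 and 11.67 in control subpolysomal RNA (P1, P3) and 10.74 and 11.68 in knockdown. Its polysomal arrays read 12.39, 12.39 and 11.78 in control (P2, P4, P5) and 10.92, 11.81 and 11.98 in knockdown. Only its P1 arrays and the knockdown P2 array fell below 11.

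H2BC5 probe 1, another H2B gene, read 8.92 and 9.18 in control subpolysomal RNA (P1, P3) and 8.98 and 9.33 in knockdown, and 9.88, 9.97 and 10.78 in control polysomal RNA (P2, P4, P5). The knockdown polysomal arrays read 8.42, 9.91 and 9.94, so that the knockdown P2 array was the lowest of all 10. The other 6 probes above background everywhere stayed within a narrower span near the floor. H3C7, an H3 gene, reached 8.80 and 9.12 on the P3 arrays and lay between 7.64 and 8.06 on the other 8. H2AC25, H2BC4, H3C4, H2BC15 and H2BC21 ranged over 0.65, 0.65, 0.56, 0.16 and 0.80 across arrays.

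**Figure D2:**
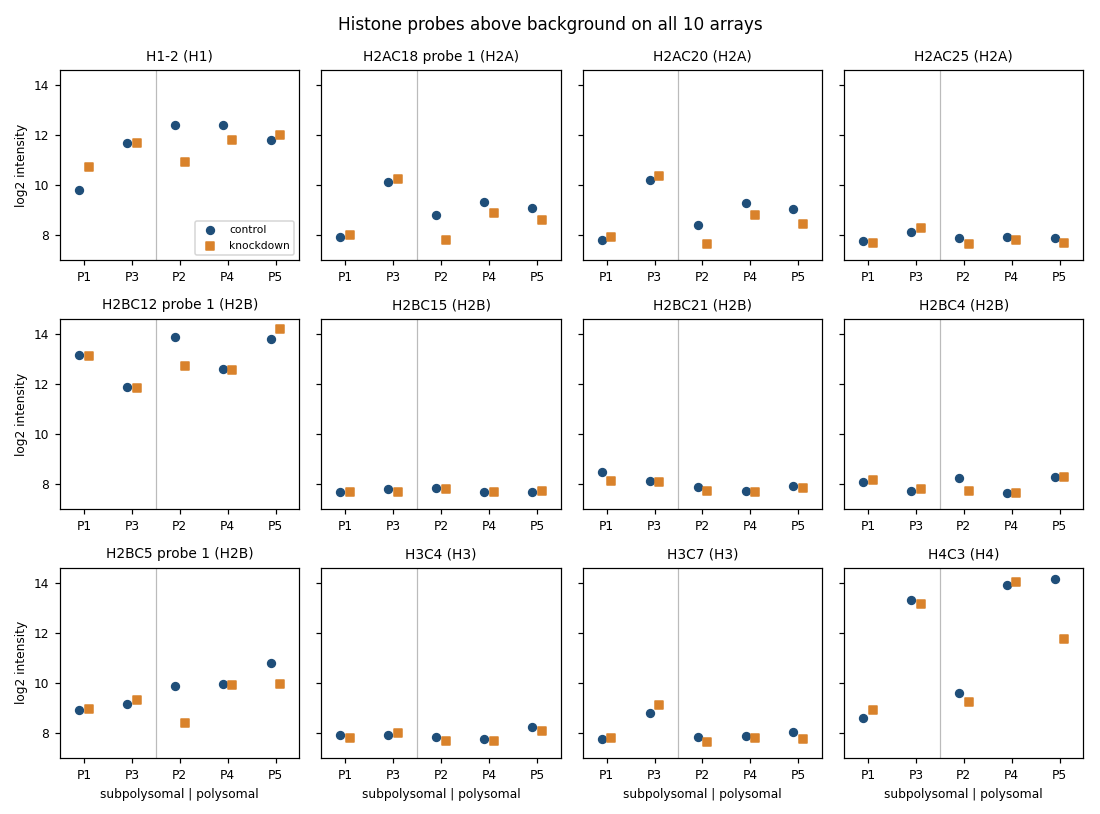
Quantile-normalised log2 intensity (vertical axis) of the 12 histone probes above background on all 10 arrays, 1 panel a probe and 1 point an array, by P number, with control arrays as circles and knockdown arrays as squares. H4C3 is low on the P1 and P2 arrays with both hairpins, between 8.62 and 9.61, and between 11.74 and 14.13 on the others.

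Differences between arrays of the same pool were tested with limma's moderated F test over the 3 differences P3 minus P1, P4 minus P2 and P5 minus P2, averaged over hairpins, with 3 residual degrees of freedom. It called 12 of the 48 kept histone probes (25.0%), against 21.2% of all 26394 kept probes, so the share was near that of all probes. The 12 were 6 of 12 H2A probes (H2AC20, both H2AC18 probes, H2AC19, H2AC6, H2AC25), 1 of 15 for H2B (H2BC8), 4 of 11 for H3 (H3C7, H3C10, H3C4 and the H3C11/H3C6 probe), 1 of 8 for H4 (H4C3) and 0 of 2 for H1. The difference between families was not tested. The H2A count includes the H2AC18 and H2AC19 probes, which may detect the same transcripts.

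H2AC20 had the smallest adjusted p, 0.00677, with P3 minus P1 at 2.42, P4 minus P2 at 1.02 and P5 minus P2 at 0.71 (SE 0.08 each). For H4C3 the differences were 4.48, 4.54 and 3.52 (SE 0.62 each, adjusted p = 0.0169). The H3C11/H3C6 probe was lower instead, by -0.71, -0.48 and -0.31 (SE 0.08 each, adjusted p = 0.0169). H2BC12 probe 1 missed the threshold, with -1.28, -0.71 and 0.70 (SE 0.38 each, adjusted p = 0.0843).

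Over all 48 kept probes the P3 arrays read higher than the P1 arrays for 39, with a median difference of 0.21, against a median of -0.01 over all kept probes. P4 read higher than P2 for 36 (median 0.04) and P5 higher than P2 for 42 (median 0.09). All 12 H2A probes, those of near copies included, were higher on P3 than on P1. Differences over 1 were met by 11 of 48 histone probes (22.9%) between P3 and P1, where 9.53% of all kept probes met them, by 5 (10.4%) between P4 and P2, where 11.2% did, and by 2 (4.17%) between P5 and P2, where 7.57% did. Split by sum of squares, the P number within a pool took a median 63.8% of a histone probe's variation over arrays, the pool 11.1% and the hairpin 8.28%. These shares are not adjusted for degrees of freedom. The P number has more of them than the hairpin, and the hairpin more than the pool, so the shares cannot be ranked against each other. The P number took more than 50% for 32 of 48 histone probes and for 13198 of all 26394, over which the pool took a median 10.1% and the hairpin 8.22%. Among probes above background on all 10 arrays the P number took 70.6% for the 12 histone probes and 61.6% for all 11416.

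**Figure D3:**
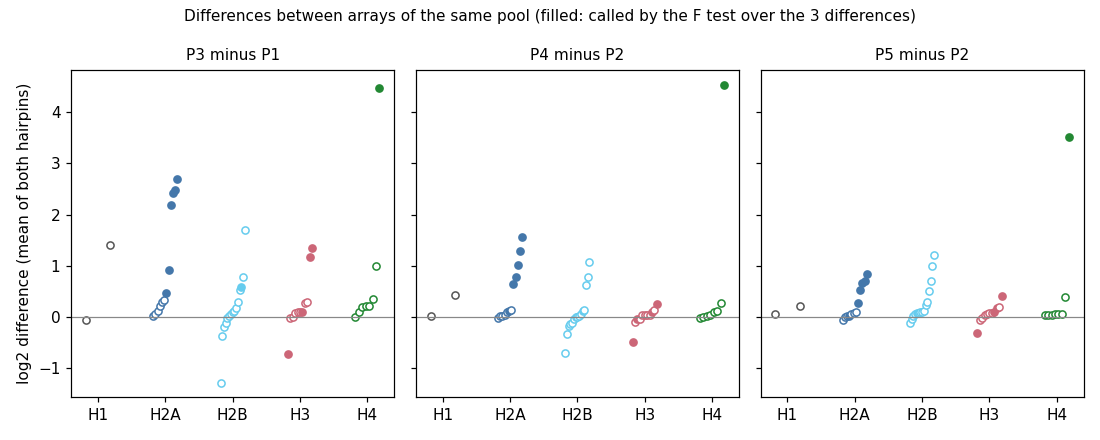
Log2 difference between arrays of the same pool (vertical axis, mean of both hairpins) for the 48 kept histone probes, by family, with 1 panel for each of P3 minus P1, P4 minus P2 and P5 minus P2. Filled points are the 12 probes called by the F test, and H4C3 stands highest in every panel at 4.48, 4.54 and 3.52.

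Different probes of 1 gene did not always move together. H2BC12 probe 2 read 7.60 (P1) and 9.27 (P3) in control subpolysomal RNA and 7.70 and 9.43 in knockdown, the reverse of probe 1. In polysomal RNA it read 7.86, 8.70 and 9.63 in control (P2, P4, P5) and 7.57, 8.87 and 7.79 in knockdown. The same was seen in genes outside the histone clusters. ACTB probe 3 read 8.48 and 12.58 in control subpolysomal RNA (P1, P3) and 7.90 and 12.59 in knockdown, where ACTB probe 1 read 12.54, 12.61, 12.84 and 12.49. In polysomal RNA ACTB probe 3 read 8.36, 12.81 and 12.03 in control (P2, P4, P5) and 7.55, 12.34 and 9.80 in knockdown.

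The pattern of ACTB probe 3, low on P1 and P2, high on P3 and P4 and intermediate on the knockdown P5 array, resembled that of H4C3. Its differences P3 minus P1, P4 minus P2 and P5 minus P2 were 4.39, 4.62 and 2.96, while P3 minus P1 was -0.14 for ACTB probe 1. For H3-3A, the gene of the replication-independent variant H3.3, P3 minus P1 was 0.18 by probe 1, 1.31 by probe 2 and 1.65 by probe 3. GAPDH, a glycolytic enzyme gene, gave 1.24, 0.21 and 1.37. The part of such probe-dependent differences in the histone values was not tested.

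**Figure D4:**
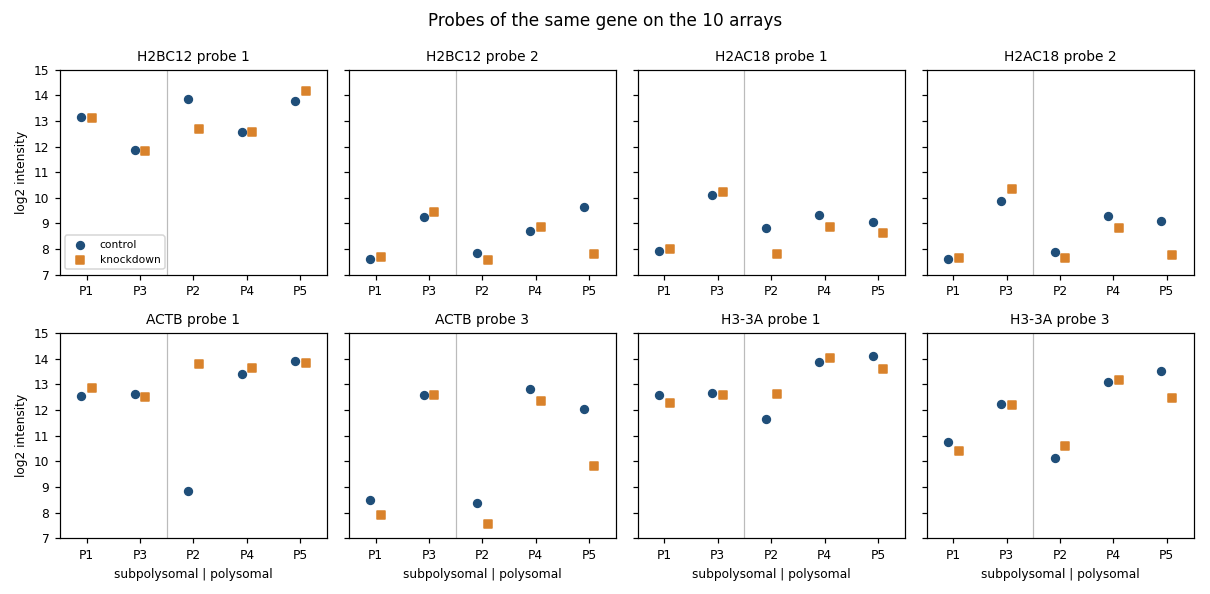
Quantile-normalised log2 intensity (vertical axis) of pairs of probes for H2BC12, H2AC18, ACTB and H3-3A on the 10 arrays, by P number, with control arrays as circles and knockdown arrays as squares. The H2AC18 probes rise and fall together, the H2BC12 probes run in opposite order between P1 and P3, and ACTB probe 3 reads 4.39 higher on P3 than on P1 where ACTB probe 1 differs by -0.14.

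Whether histone mRNAs sat with ribosomes or without was read from the polysomal minus subpolysomal difference. Quantile normalisation makes it relative to the other probes, and P numbers and pools cannot be told apart since none is shared. With both hairpins averaged, limma called 0 of 48 histone probes, and 3 had an unadjusted p under 0.05. The fit took the 6 polysomal and 4 subpolysomal arrays as separate, although they come in pairs sharing a P number. Of all kept probes 307 were called (1.16%), and 2998 had an unadjusted p under 0.05. The histone median was -0.07, with 34 of 48 lower in polysomal RNA, against a median of 0.01 over all kept probes. It was 0.01 without the knockdown subpolysomal P3 array and -0.14 without the P1 and P2 arrays.

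H2BC21 was the member with the smallest p. It read 8.47 (P1) and 8.11 (P3) in control subpolysomal RNA and 8.14 and 8.10 in knockdown. In polysomal RNA it read 7.90 (P2), 7.71 (P4) and 7.91 (P5) in control and 7.74, 7.67 and 7.83 in knockdown. Every subpolysomal array lay above every polysomal array. The difference was -0.41 (SE 0.08, 95% confidence interval -0.60 to -0.22) and its adjusted p, 0.0777, missed the threshold. Without the control subpolysomal P3 array it was -0.50 with an adjusted p of 0.0472. Over the means of the 5 array pairs the exact two-sided permutation p was 0.1, the smallest that 10 relabellings allow. H2BC21 was the 1 histone probe of 48 (2.08%) whose pools did not overlap with polysomal RNA lower, against 3.24% of all kept probes, and 0 did so with polysomal RNA higher, against 2.3%.

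The H3C11/H3C6 probe came next. It read 8.92 (P1) and 8.20 (P3) in control subpolysomal RNA and 8.92 and 8.22 in knockdown, and 8.25, 7.64 and 7.82 in control polysomal RNA (P2, P4, P5) and 7.97, 7.63 and 7.77 in knockdown. The control P2 array overlapped the P3 arrays, and the polysomal P4 and P5 arrays were lowest. The difference was -0.72 (SE 0.21, adjusted p = 0.245). The probe of H3C6 alone differed by -0.15 (SE 0.05, adjusted p = 0.335), its subpolysomal arrays lying between 7.78 and 7.94 and its polysomal arrays between 7.60 and 7.81.

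Among the other bright members the pool difference was smaller than the widest difference between P numbers of 1 pool. It was 1.10 (SE 1.62) for H4C3, 0.91 (SE 0.43) for H1-2, 0.79 (SE 0.50) for H2BC12 probe 1, 0.72 (SE 0.35) for H2BC5 probe 1, -0.32 (SE 0.57) for H2AC18 probe 1 and -0.47 (SE 0.64) for H2AC20. The adjusted p-values of these 6 lay between 0.496 and 0.890. For H4C3 the 95% confidence interval ran from -2.71 to 4.91, which spans both directions. Without the control subpolysomal P1 array its difference was -0.07.

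By family the median pool difference was 0.43 for the 2 H1 probes, -0.13 for H2A (10 of 12 lower), -0.05 for H2B (10 of 15 lower), -0.10 for H3 (8 of 11 lower) and -0.07 for H4 (5 of 8 lower). No difference between families was tested. Within control cells limma called 0 of 48 histone probes, against 34 of all kept probes (0.129%), and 2 histone probes and 1489 of all kept probes had an unadjusted p under 0.05. The histone median was -0.02. H2BC21 (-0.45, SE 0.11, adjusted p = 0.410), H1-2 (1.45, SE 0.60, adjusted p = 0.873) and H2BC5 probe 1 (1.16, SE 0.50, adjusted p = 0.889) had the smallest p-values. Without the control subpolysomal P1 array the H1-2 difference was 0.52.

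Within knockdown cells the count was also 0 of 48, against 42 of all kept probes (0.159%), and 3 histone probes and 2028 of all kept probes had an unadjusted p under 0.05. The 3 were H3C6 (-0.24, SE 0.07, adjusted p = 0.430), H2BC21 (-0.37, SE 0.11, adjusted p = 0.431) and the H3C11/H3C6 probe (-0.78, SE 0.30, adjusted p = 0.590). The histone median was -0.11, with 39 of 48 lower, and it was 0.01 without the knockdown subpolysomal P3 array.

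Knockdown against control was compared within each pool. In polysomal RNA, 3 arrays against 3, limma called 0 of 48 histone probes and 0 of all 26394 kept probes (0%), of which 0 and 402 had an unadjusted p under 0.05. Histone probes read lower in knockdown for 38 of 48, with a median of -0.09, against 12546 of 26394 and a median of 0.00 over all kept probes. The medians by family were -0.28 for H1, -0.16 for H2A, -0.06 for H2B, -0.07 for H3 and -0.08 for H4, with 10 of 12 H2A and 13 of 15 H2B probes lower. By array pair, 40 of 48 were lower in P2 (median -0.13), 31 in P4 (median -0.02) and 36 in P5 (median -0.11).

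The 3 histone probes with the smallest p in polysomal RNA were H2AC11 probe 1, H3C8 and H2BC5 probe 1. H2AC11 probe 1 read 7.64, 7.69 and 7.77 in control (P2, P4, P5) and 7.50, 7.65 and 7.58 in knockdown, a difference of -0.12 (SE 0.05), with 3 control arrays and 1 knockdown array above background. H3C8 read 7.72, 7.58 and 7.71 in control and 7.54, 7.50 and 7.65 in knockdown, a difference of -0.10 (SE 0.06). Both ranges overlap and lie at the floor. H2BC5 probe 1, whose values stand above, differed by -0.79 (SE 0.44, 95% confidence interval -1.84 to 0.26), and by -0.28 without the knockdown P2 array. All adjusted p-values here were 1.00.

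In 5 of 48 histone probes (10.4%) every knockdown polysomal array lay below every control one, against 2.52% of all kept probes. These were H2AC25, H3C7, H3C14, H4C11 and H4C14. H2AC25 read 7.89, 7.93 and 7.90 in control and 7.64, 7.83 and 7.69 in knockdown, and H3C7 read 7.84, 7.88 and 8.06 against 7.64, 7.80 and 7.75. H4C14 differed by less, with 7.67, 7.69 and 7.76 against 7.65, 7.63 and 7.64. H4C11 was above background on all 3 control polysomal arrays and on no knockdown one. Its mean signal, background included, was at least 1.02-fold higher in control. The limma difference was -0.09 (SE 0.10, 95% confidence interval -0.32 to 0.13), which spans both directions. H3C14 was above background on no polysomal array, so no level is compared. In 1 probe (2.08%), H2AC7, all knockdown arrays lay above the control arrays, against 3.42% of all kept probes. That probe was above background on 1 of the 6 polysomal arrays.

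In subpolysomal RNA, 2 arrays against 2, limma again called 0 of 48 histone probes and 0 of all kept probes (0%), of which 0 and 226 had an unadjusted p under 0.05. Here histone probes read higher in knockdown for 37 of 48, with a median of 0.04 against 0.00 over all kept probes. All 11 H3 probes were higher (median 0.04), as were 10 of 12 for H2A (median 0.05), 7 of 8 for H4 (median 0.05) and 8 of 15 for H2B (median 0.00). By pair, 36 of 48 were higher in P3 (median 0.06) and 27 in P1 (median 0.01). Without the knockdown P3 array the median was -0.09. The knockdown P3 array also had more probes above background over the whole table, 20205, than any other array.

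H2AC13 (0.10, SE 0.05), H3C6 (0.14, SE 0.08) and H2AC7 (-0.16, SE 0.10) had the smallest p-values in subpolysomal RNA, with adjusted p-values of 1.00. H2AC13 read 7.57 and 7.64 in control (P1, P3) and 7.68 and 7.73 in knockdown. H3C6 read 7.78 and 7.81 against 7.94 and 7.92. Neither probe overlapped between hairpins in this pool. Both were picked by their small p, groups of so few arrays often separate, and the share among all kept probes was not counted. The values of H2AC13 lay inside the range of the probes not kept, 7.41 to 7.84, and those of H3C6 at its upper end or just above it. H2AC7 read 7.53 and 7.85 in control and 7.47 and 7.59 in knockdown, where it was above background on no array.

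**Figure D5:**
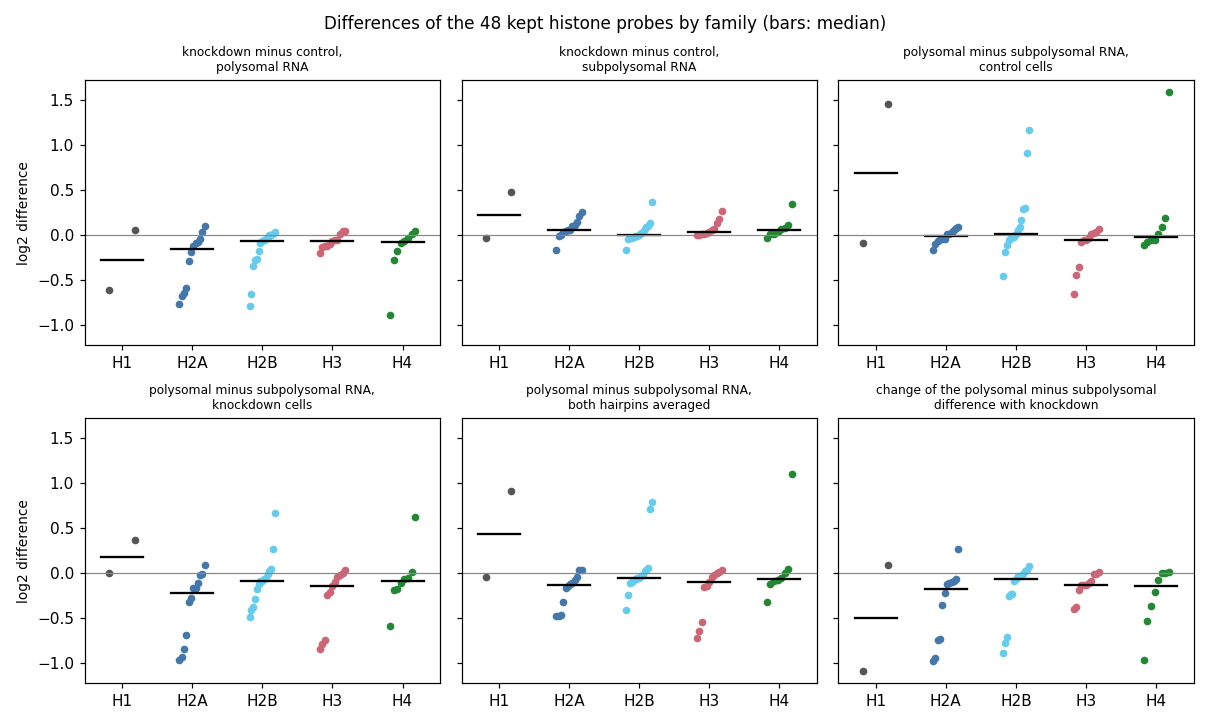
Log2 differences (vertical axis) of the 48 kept histone probes by family in the 6 comparisons, with 1 point a probe and bars at the family median. In polysomal RNA 38 of 48 points lie below 0 for knockdown minus control, in subpolysomal RNA 37 of 48 lie above it, and no point was called by limma.

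The change of the pool difference with knockdown was tested as an interaction. limma called 0 of 48 histone probes and 0 of all kept probes (0%), of which 0 and 298 had an unadjusted p under 0.05. The histone median was -0.12, with 40 of 48 lower, against 0.01 over all kept probes. It was 0.05 without the knockdown subpolysomal P3 array and 0.01 without the control subpolysomal P1 array. H2AC7 (0.26, SE 0.13), H3C6 (-0.19, SE 0.11) and H4C11 (-0.20, SE 0.15) had the smallest p-values, all with an adjusted p of 1.00. For H4C3 the change was -0.96 with a 95% confidence interval from -8.58 to 6.67, which includes the spread between P numbers.

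Genes around the histone genes were read from lists, each gene by its brightest kept probe. Shares of all kept probes count every kept probe, dim ones included, and are not matched to the lists in brightness. Of the 6 histones known to give polyadenylated transcripts all were kept and 0 were called in any of the 6 comparisons. In polysomal RNA all 6 were lower with knockdown (median -0.28), and 1 of the 6, H2AC6, was called between P numbers. H2AC6 read 7.59 and 8.54 in control subpolysomal RNA (P1, P3) and 7.67 and 8.57 in knockdown, and 7.77, 8.28 and 8.24 in control polysomal RNA (P2, P4, P5) and 7.52, 8.30 and 7.59 in knockdown. H2BC4, of the same list, read highest on the P1, P5 and control P2 arrays, between 8.09 and 8.30, and between 7.65 and 7.81 on the other 5.

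Among 11 genes listed as replication-independent histone variants, 10 were kept and 0 were called in the 6 comparisons. Between P numbers 4 of 10 were called, against 21.2% of all kept probes, which are dimmer: 7 of these 10 were above background on every array. H2AJ, an H2A variant, was high on the P3 arrays like H2AC18 and H2AC20, at 9.95 and 10.30 against 7.94 and 8.00 on the P1 arrays. CENPA, the centromeric H3, went the other way, with P3 minus P1 at -1.92, and so did H3-3B, a gene of the variant H3.3, at -1.01. By pool difference MACROH2A1 (0.72, SE 0.34), H3-3A (0.79, SE 0.52) and H2AZ1 (0.58, SE 0.51) had the smallest p-values, with adjusted p-values between 0.511 and 0.755.

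Among 22 genes of histone mRNA synthesis, processing and decay, 20 were kept. In the pool comparison averaged over hairpins 1 was called higher in polysomal RNA and 1 lower, against 1.16% of all kept probes. SRRT, which encodes the cap-binding complex partner ARS2, read 9.84 and 9.84 in control subpolysomal RNA (P1, P3) and 9.88 and 9.91 in knockdown, and 10.62, 10.50 and 10.67 in control polysomal RNA (P2, P4, P5) and 10.96, 10.96 and 11.03 in knockdown. The pools did not overlap, and the difference was 0.92 (SE 0.04, adjusted p = 7.8e-04, and 0.00576 with the P number as a random block). The call was lost on the authors' values (adjusted p = 0.0503), with the background mode subtracted (0.0534), with a trended and robust prior (0.289), with pairs averaged first (0.183) and without the P1 and P2 arrays (0.0971). LSM10, a subunit of the U7 snRNP that takes part in histone pre-mRNA cleavage, read between 9.16 and 10.04 in subpolysomal RNA and between 7.91 and 8.35 in polysomal RNA. It was lower by -1.39 (SE 0.20, adjusted p = 0.0281). The call was lost with the P number as a random block (adjusted p = 0.0702), with pairs averaged first (0.476), and in 8 of the 10 fits that left out 1 array.

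SLBP itself read 9.52 and 9.14 in control subpolysomal RNA (P1, P3) and 9.76 and 8.89 in knockdown, and 10.85, 9.69 and 10.14 in control polysomal RNA (P2, P4, P5) and 10.06, 9.54 and 10.16 in knockdown. Its pool difference was 0.75 (SE 0.28, adjusted p = 0.378). For SLBP P3 minus P1 was -0.63, and -0.82 by its second probe, neither tested for a link with the histone probes that were higher on P3.

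Of 16 histone chaperones, which carry histones to and from DNA, 15 were kept and 0 were called in the 6 comparisons. Between pools NAP1L4 differed by 0.98 (SE 0.18, adjusted p = 0.0640), UBN1 by 0.87 (SE 0.19, adjusted p = 0.107) and NAP1L1 by -0.75 (SE 0.31, adjusted p = 0.430). Between P numbers 7 of the 15 chaperones and 9 of the 20 processing genes were called, against 21.2% of all kept probes. The baseline is dimmer than these lists. Above background on all 10 arrays were 12 of the 15 and 16 of the 20, against 11416 of all 26394 kept probes. Of the markers, 4 of 8 kept megakaryocyte genes, 0 of 5 erythroid genes, 1 of 2 monocyte and granulocyte genes and 0 of 3 lymphoid genes were called between P numbers. Among the markers 1 was called in the 6 comparisons, HBG1, a fetal globin gene, higher in polysomal RNA by 0.34 (SE 0.06, adjusted p = 0.0447). With the P number as a random block the adjusted p of HBG1 was 0.349, and on the authors' values without quantile normalisation its difference was -0.21.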

How the data were processed

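Meg01 RNA from 2 gradient pools and 2 hairpins was measured on 10 Illumina beadchip arrays. The authors deposited processed probe intensity values on a linear scale, with array medians of 193 to 194. The linear scale was read from the values, and the sources used here do not say how they were normalized. The submitters' processing notes name R 2.15, and per the labels' protocols biotin-labelled cRNA was hybridised. A second deposited table of unnormalized signals holds 20 columns whose headings match no sample label. They were not used here, so the planned neqc correction was not run.

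The intensities were taken to log2 and quantile-normalized over the 10 arrays, so differences are relative to the other probes. Background was taken, array by array, as the log2 values under the mode reflected about it, with a 0.05 upper tail. Probes above it on at least 2 arrays were kept (26394). A bound ("at least") sets the bright group's mean against the lowest signal above background on each array of the dim group. limma 3.58.1 in R 4.3.3 (lmFit, eBayes, 4 group means, all 10 arrays) gave all log2 differences, SEs and Benjamini-Hochberg adjusted two-sided p-values, called under 0.05 and adjusted over all kept probes. It was tested on simulated data. The number of arrays limits the precision.

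Gene symbols came from the platform annotation, updated by gene identifier through RefSeq on GRCh38.p14 (30074 of the named probes matched), which also gave the promoters (the first window listed for a gene). In all 30113 probes had 1 symbol, 8 several and 17202 none. Values were printed for members above background on all 10 arrays, for the highest mean of each family and for the 3 smallest p-values in each comparison, and for lists the genes called or the 3 smallest p-values between pools. Members named for not overlapping between hairpins or between P numbers were chosen after their values were seen. The members and lists were chosen with earlier results of these data known, so list counts and medians are descriptions with no test.

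Within a pool, arrays sharing a P number deviated from their group means together. The correlations were 0.763, 0.769 and 0.467 for P2, P4 and P5, and 0.917 for P1 and P3, which mirror each other in groups of 2. The P numbers were therefore taken to pair control and knockdown arrays. The F test between P numbers and the sums of squares were added after seeing the data. The closing section gives the alternatives tried.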

Additional observations from a re-analysis of the deposited data

Results flagged for a closer look

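In 10 of the 48 kept histone probes every subpolysomal pair of arrays differed one way between knockdown and control and every polysomal pair the other way. All but H2AC7 read higher with knockdown in both subpolysomal pairs and lower in all 3 polysomal pairs. The change of the knockdown effect between pools was -0.98 for H2AC19, -0.94 and -0.75 for H2AC18 probes 2 and 1, -0.89 for H2BC5 probe 1, -0.73 for H2AC20, -0.38 for H3C7, -0.26 for H2BC4, -0.12 for H2AC17 and -0.078 for H4C14. For H2AC7 it was 0.26. H2AC7 was above background on 2 of the 10 arrays, H2AC17 on 3 and H4C14 on 8. Each of these was at background on every array of at least 1 group, for H4C14 the control subpolysomal arrays, so their differences are read at the floor. limma's interaction test gave an adjusted p of 1.00 for each of the 10. That test took all arrays as separate, so its error holds the spread between P numbers. For H2AC20 the P number took 86.4% of the sum of squares. With the P number as a replicate block no histone probe was called either. These are 20.8% of the kept histone probes, and pairs opposed in this manner were found for 1956 of all 26394 kept probes (7.41%). The H2AC18 and H2AC19 probes may detect the same transcripts, so the 10 are not separate signals and the histone share may count 1 signal repeatedly. For H2AC20 the pair differences were 0.12 (P1) and 0.16 (P3) against -0.74 (P2), -0.46 (P4) and -0.57 (P5). For H2BC5 probe 1 they were 0.05 and 0.15 against -1.47, -0.06 and -0.84, so the P2 pair held the largest part.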

How the results depend on the processing

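Across the alternatives no histone probe was called in any of the 6 comparisons, with 1 exception among the leave-one-out fits, and of 765 recomputed differences of single genes 708 kept direction and side of the threshold, 33 lost their call, 7 gained one and 17 changed sign. With the P number as a replicate block 0 histone probes were called, so the block changed no call of a histone probe. The medians of -0.0884 (polysomal), 0.0365 (subpolysomal) and -0.116 (change) could not move. Each P number holds 1 control and 1 knockdown array, so the block leaves every difference as it was. Calls over all probes between pools averaged, 307 as reported, were 49 with the random replicate block, 115 with a trended and robust prior, 170 with 1 probe per gene, 1 with pairs averaged first, 0 without the P1 and P2 arrays and 111 to 287 without 1 array. Subtracting the background mode with an offset of 16, which stretches differences near the floor, moved the medians to -0.420 for knockdown in polysomal RNA, 0.161 in subpolysomal RNA, -0.647 between pools in knockdown cells, -0.291 between pools averaged and -0.568 for the change. Keeping only probes above background on all 10 arrays gave -0.232 for knockdown in polysomal RNA and -0.316 for the change. H2BC4 between pools turned to -0.0238 with the offset, and H2BC15 to -0.0442 without the P1 and P2 arrays, a choice made after seeing the data. HBG1 turned to -0.205 on the authors' values and -0.204 with median centring, where NAP1L4 (1.02 and 1.03) and UBN1 (0.913 and 0.915) passed the threshold. SRRT lost its call in the averaged pool comparison on the authors' values (adjusted p = 0.0503), with the offset (0.0534), with a trended and robust prior (0.289), with pairs averaged first (0.183) and without the P1 and P2 arrays (0.0971). A background tail of 0.01 kept 45 histone probes, 8 of them on all 10 arrays.

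Leaving out each array in turn gave between 0 and 1 called histone probes between pools averaged, and H2BC21 ran from -0.501 to -0.324, LSM10 from -1.61 to -1.17 and HBG1 from 0.283 to 0.406. The medians ran from -0.0930 to 0.126 for knockdown in subpolysomal RNA, from -0.203 to 0.0129 between pools in knockdown cells and from -0.165 to 0.0492 for the change. Between pools averaged H2AC18 probe 1 ran from -0.871 to 0.237, H2AC20 from -1.08 to 0.141, H2BC15 from -0.00264 to 0.0569, H2BC4 from -0.0598 to 0.140, H3C4 from -0.112 to 0.0122 and H4C3 from -0.0740 to 2.28. A lone array left in a group is assumed to vary like the other groups. The cause of these shifts was not tested. The neqc alternative was not run. Most histone probes sit so near the floor that a fold change in their mRNA would be understated.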
